A study of Mus musculus with 6 samples.

Results

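The circadian clock genes examined here were Arntl, Clock, Per1, Per2, Per3, Cry1, Cry2, Nr1d1, Nr1d2 and Dbp, chosen by their symbols, and all 10 were found among the 15803 genes of the table. They were measured by RNA-seq in the growth plate cartilage of E18.5 mouse embryos, in 3 libraries of CKO (Col2a1-Cre;Hnrnpk fl/fl) embryos and 3 libraries of WT (Hnrnpk fl/fl) embryos. Both genotypes therefore carried the floxed Hnrnpk alleles, and only CKO carried the Cre recombinase, which the Col2a1 promoter drives in cells of the chondrocyte lineage. Littermates of either sex were used. The sources used here give no hour of dissection and do not say whether a library came from 1 embryo, so that the p-values measure the spread between these libraries, which may in part be technical. In whole tissue, fewer cells of a type and less RNA per cell cannot be told apart.

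The molecular clock is a feedback loop of transcription that runs in most cell types, chondrocytes among them, with a period of about a day. Clock and Arntl (also called Bmal1) form a dimer that binds E-box sequences and activates the Per, Cry, Nr1d and Dbp genes. Per and Cry proteins then return to the nucleus and inhibit the dimer, while the Nr1d receptors repress Arntl by competing with Ror receptors for RORE sequences. Dbp is an output factor that binds D-box sequences. Because these transcripts cycle, activators and E-box targets peak at different times of day, and a sample taken at a single moment shows 1 phase only.

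The 6 libraries held between 1153871 and 1454094 reads, and 1 read was worth 0.688 to 0.867 CPM (a gene's reads scaled to a common library total). The 10 clock genes together had 558 reads in all 6 libraries, so each value below rests on few reads. Hnrnpk itself lay between 842 and 955 CPM in WT and between 759 and 949.9 CPM in CKO, and these whole-gene values did not separate the genotypes (log2 fold change -0.14, adjusted p = 0.622 by limma). The floxed segment covers only some exons of Hnrnpk, and whole-gene values also count the others. For the protein, the paper reports an effective knockout by western blot and immunostaining, in embryos of an earlier stage. All 6 chondrocyte markers (Col2a1, Acan, Sox9, Matn1, Col9a1 and Comp) were present in each library, with summed levels of 12754 to 16629 CPM in WT and 2658 to 3277 CPM in CKO. Of these 6 markers, 5 fell past the adjusted threshold. Other cell types were read from their own markers. The 4 markers of macrophages and osteoclasts had sums of 98.6 to 107 CPM in WT and 170 to 191 CPM in CKO. Among them only Cd68 passed the adjusted threshold (means 9.09 CPM in WT and 66.5 CPM in CKO). Ctsk (means 88.3 and 99.0 CPM), Csf1r and Acp5 overlapped between the genotypes. The 4 of fibroblasts and tendon had sums of 1076 to 1502 CPM in WT and 243 to 437 CPM in CKO. Most of these sums was Dcn (means 1138 and 323 CPM), the only one of them to pass. Tnmd was lower in each CKO library, Postn overlapped, and Scx had means of 0.483 CPM in WT and 1.34 CPM in CKO. The epidermal markers Krt10 and Sbsn summed to 20.3 to 42.0 CPM in WT and 60.6 to 118 CPM in CKO. Sbsn passed the adjusted threshold, while Krt10 overlapped between the genotypes (log2 fold change 0.41, adjusted p = 0.484 by limma). Krt5 and Krt14, which define basal keratinocytes, were not among the genes of the table. Endothelial and erythroid markers each summed to at most 3.47 CPM in any library, and muscle markers to at most 94.6 CPM. The part of these cells in the clock gene values was not tested.

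Of the 10 clock genes, 0 passed limma's adjusted p of 0.05 between CKO and WT, beside 5.78% of the 12155 genes tested. All 10 reached the filter, a mean of 1 CPM, and were tested. At an unadjusted p under 0.05 the count was 4 with limma, 3 with edgeR's quasi-likelihood test and 2 with DESeq2. With limma, 21.3% of all genes tested lay under that value. The share of all genes was not taken for edgeR and DESeq2, so their counts have no background beside them. By limma on log2(CPM + 1), the same 4 genes met the criterion of the study, an unadjusted p under 0.05 with a log2 fold change above 1 or below -1. So did 10.4% of all genes tested. The paper does not name its test, so these are not its own calls. The 4 genes were Nr1d1, Cry1 and Per2, with higher values in CKO, and Dbp, with lower values. In these 4 genes the libraries of the genotypes did not overlap, against 27.7% of all genes tested. The median log2 fold change of the 10 genes was 0.11, beside 0.013 over all genes tested.

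**Figure D1:**
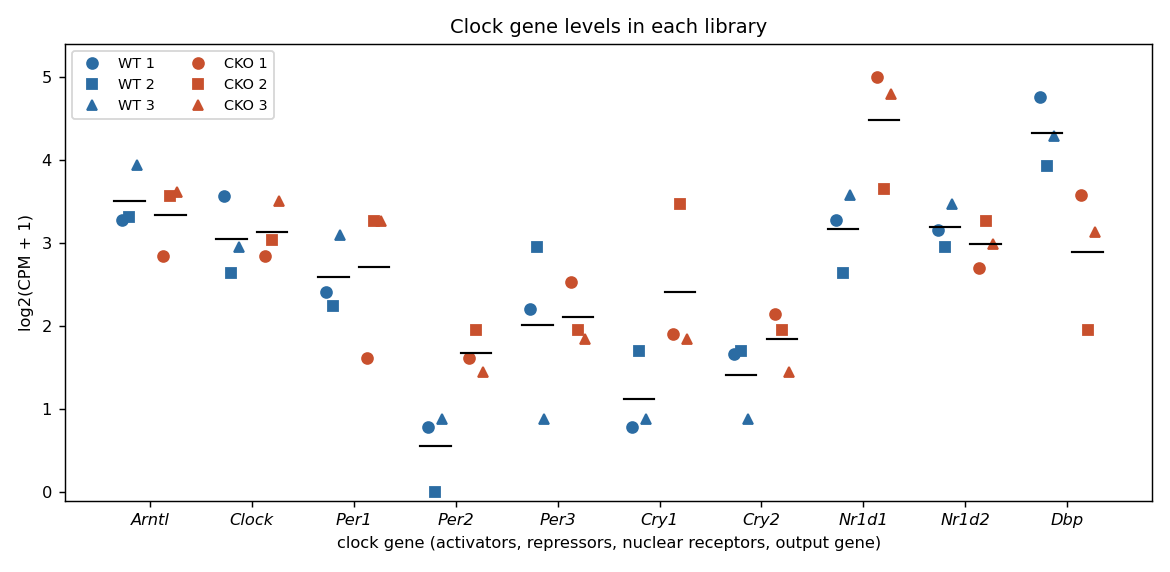
Level of each clock gene in each library as log2(CPM + 1), with WT in blue, CKO in orange, a symbol for each replicate number and the mean of a genotype as a black line. The libraries of the genotypes lie apart for Per2, Cry1, Nr1d1 and Dbp, and overlap for the other 6 genes.

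Relative to exon length, Dbp was the most abundant of the 10 transcripts in WT cartilage, at a mean of 6.56 CPM per kb (4.76 to 8.72 in single libraries). Nr1d1 came next at 2.70 CPM per kb (1.71 to 3.57), and these ranges did not overlap. Nr1d2 at 1.53, Arntl at 1.42 and Per1 at 0.930 CPM per kb followed, and their ranges overlapped from each gene to the next. The range of Nr1d2 (1.25 to 1.87) also overlapped that of Nr1d1. Clock had 0.556, Per3 0.389, Cry1 0.381, Cry2 0.278 and Per2 0.0893 CPM per kb, again with neighbours whose ranges overlapped. In CKO cartilage Nr1d1 stood first at 7.51 CPM per kb (3.75 to 10.1) and Dbp second by its mean at 2.42 CPM per kb (0.965 to 3.68). The range of Dbp overlapped those of Nr1d2, Arntl and Per1, so that its second place is not set. Cry1 ranged from 0.778 to 3.03 CPM per kb, with CKO 2 highest, and overlapped Dbp, Nr1d2, Arntl and Per1, so that it has no set rank among them. Nr1d1 and Dbp thus stood in the opposite order in CKO, and their ranges did not overlap in either genotype. In CKO they only just missed, at 3.75 CPM per kb for the lowest Nr1d1 library and 3.68 for the highest Dbp library. Each of these values rests on 16 reads.

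**Figure D2:**
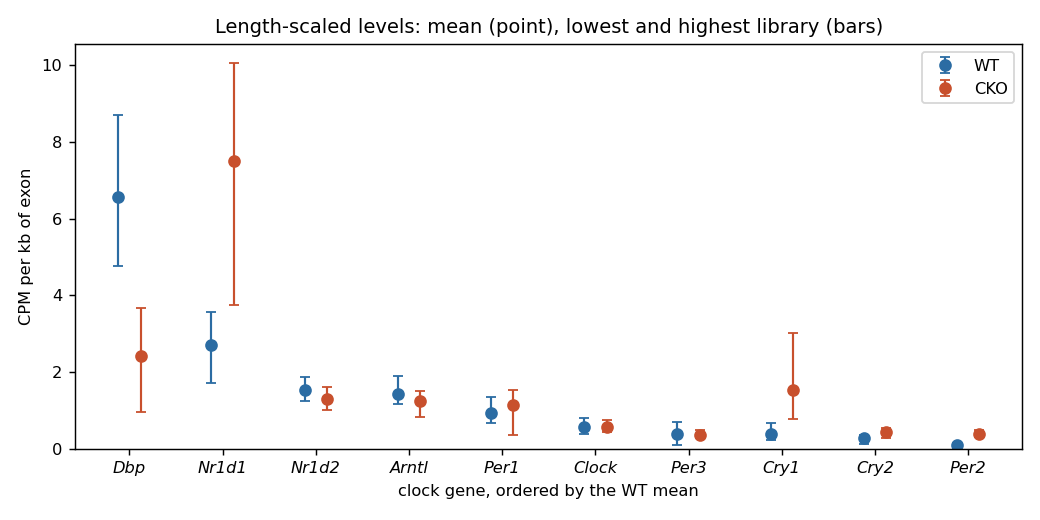
Mean level in CPM per kb of annotated exon for each clock gene in WT (blue) and CKO (orange), ordered by the WT mean, with bars from the lowest to the highest of 3 libraries. Dbp leads in WT at 6.56 CPM per kb and Nr1d1 leads in CKO at 7.51 CPM per kb.

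The activators Arntl and Clock overlapped between the genotypes. Arntl (ENSMUSG00000055116; GRCm38 chromosome 7, 113207465 to 113314126, plus strand) encodes the partner of Clock and is the single clock gene whose loss alone abolishes behavioural rhythms. Its level was 8.70 CPM in WT 1, 9.01 in WT 2 and 14.4 in WT 3, and it was 6.19 CPM in CKO 1, 10.8 in CKO 2 and 11.3 in CKO 3. The ranges overlapped, with WT 3 highest and CKO 1 lowest. Its log2 fold change on the log2(CPM + 1) scale was -0.17 (SE 0.36, 95% interval -0.97 to 0.63, adjusted p = 0.828 by limma). Clock (ENSMUSG00000029238; chromosome 5, 76209868 to 76304792, minus strand) had 10.9, 5.25 and 6.76 CPM across WT and 6.19, 7.22 and 10.4 CPM across CKO. Again the libraries overlapped, and the log2 fold change came to 0.08 (95% interval -0.77 to 0.92, adjusted p = 0.937 by limma). Both intervals are wide, and Arntl and Clock had 78 and 61 reads over all 6 libraries.

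Promoter windows, from 250 bases before to 50 bases after the start site, were taken from RefSeq on GRCm38.p6 and were found for 9 of the 10 genes, in 13 windows. Each window was searched on both strands for the E-box CACGTG, the D-box TTATGTAA and an RORE core written as TAGGTCA or TGGGTCA. These letters occurred in 7.15%, 0.938% and 6.45% of 32851 windows of all genes. A match is a description of the letters and not a bound site. The windows below are shown because they hold such letters, in capitals, or because their genes had the largest differences between genotypes. One of the windows of Arntl (chr7:113207261-113207560, plus strand) holds an RORE core that begins 31 bases into the transcript:
Arntl: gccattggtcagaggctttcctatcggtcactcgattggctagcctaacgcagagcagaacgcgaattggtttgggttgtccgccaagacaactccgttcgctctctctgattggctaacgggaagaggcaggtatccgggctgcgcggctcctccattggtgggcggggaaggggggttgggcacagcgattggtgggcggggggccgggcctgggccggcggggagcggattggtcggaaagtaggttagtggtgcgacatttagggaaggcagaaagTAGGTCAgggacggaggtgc
The windows of Per1 (chr11:69098699-69098998, plus strand) and Cry1 (chr10:85185005-85185304, minus strand) each hold an E-box, first base at -166 and -60 from the start site:
Per1: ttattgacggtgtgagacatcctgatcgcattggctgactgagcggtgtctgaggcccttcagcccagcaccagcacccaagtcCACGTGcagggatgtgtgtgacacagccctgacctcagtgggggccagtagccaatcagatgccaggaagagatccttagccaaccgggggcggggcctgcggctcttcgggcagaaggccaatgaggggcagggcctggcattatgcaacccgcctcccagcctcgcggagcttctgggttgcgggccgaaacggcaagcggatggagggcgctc
Cry1: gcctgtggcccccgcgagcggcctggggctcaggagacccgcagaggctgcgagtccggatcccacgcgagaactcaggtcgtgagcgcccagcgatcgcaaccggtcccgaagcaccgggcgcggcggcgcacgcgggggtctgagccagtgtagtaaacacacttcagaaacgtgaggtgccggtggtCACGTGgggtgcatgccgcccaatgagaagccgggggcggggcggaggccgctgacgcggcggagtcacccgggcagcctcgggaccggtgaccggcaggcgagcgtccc
The window of Per3 (chr4:151044616-151044915, minus strand) holds 2 D-boxes, whose first bases lie at -205 and -158 from the start site:
Per3: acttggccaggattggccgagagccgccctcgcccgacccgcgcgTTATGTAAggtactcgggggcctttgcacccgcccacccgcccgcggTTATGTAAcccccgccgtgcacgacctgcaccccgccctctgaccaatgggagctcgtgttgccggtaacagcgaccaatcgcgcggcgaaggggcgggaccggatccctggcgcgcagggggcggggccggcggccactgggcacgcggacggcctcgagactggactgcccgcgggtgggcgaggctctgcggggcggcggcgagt
The windows of Nr1d1 (chr11:98775328-98775627, minus strand) and Dbp (chr7:45704997-45705296, plus strand) hold none of these letters:
Nr1d1: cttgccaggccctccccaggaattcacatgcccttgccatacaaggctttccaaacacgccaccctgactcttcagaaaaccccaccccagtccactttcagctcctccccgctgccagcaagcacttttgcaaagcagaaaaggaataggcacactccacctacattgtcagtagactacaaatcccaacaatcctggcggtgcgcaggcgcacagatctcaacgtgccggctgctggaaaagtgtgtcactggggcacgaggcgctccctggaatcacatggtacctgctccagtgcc
Dbp: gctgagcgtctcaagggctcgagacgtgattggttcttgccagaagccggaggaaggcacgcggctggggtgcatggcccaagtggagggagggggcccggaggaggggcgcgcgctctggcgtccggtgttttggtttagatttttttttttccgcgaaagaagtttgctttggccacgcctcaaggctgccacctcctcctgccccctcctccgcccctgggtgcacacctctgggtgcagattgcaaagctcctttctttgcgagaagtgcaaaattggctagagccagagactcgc

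Among the repressors, Cry1 and Per2 had higher values in CKO, and Per1, Per3 and Cry2 overlapped between the genotypes. Cry1 (ENSMUSG00000020038; chromosome 10, 85131700 to 85185064, minus strand) encodes the stronger of the cryptochrome repressors, and its E-box window is printed above. It had 1, 3 and 1 reads in WT 1, 2 and 3 (0.725, 2.25 and 0.845 CPM) and 4, 14 and 3 reads in CKO 1, 2 and 3 (2.75, 10.1 and 2.60 CPM). Each CKO library lay above each WT library, but CKO 1 and CKO 3 only just so, and CKO 2 held 14 of the 21 CKO reads. The log2 fold change was 1.29 (SE 0.56, 95% interval 0.05 to 2.52, adjusted p = 0.215 by limma). Without CKO 2 it was 0.75 (adjusted p = 0.426 by limma). The exact two-sided permutation p was 0.1, the smallest that 3 libraries against 3 allow.

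Per2 (ENSMUSG00000055866; chromosome 1, 91415982 to 91459324, minus strand) encodes a repressor that is central to the timing of the loop. It had 1, 0 and 1 reads in WT 1, 2 and 3 and 3, 4 and 2 reads in CKO 1, 2 and 3, which are 0.725, 0 and 0.845 CPM against 2.06, 2.89 and 1.73 CPM. The genotypes did not overlap, yet the highest WT and the lowest CKO library differed by a single read. Over the reads of a genotype together, the ratio of CKO to WT was 4.39 with a counting interval (exact, 95%) from 0.909 to 41.8, which includes 1. The log2 fold change was 1.12 (SE 0.49, adjusted p = 0.224 by limma). A count of 0 in WT 2 allows up to 2.77 CPM (exact 95% Poisson interval), and the WT and CKO levels of Per2 could not be told apart at this depth.

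The other Per and Cry genes did not separate the genotypes. Per1 (ENSMUSG00000020893; chromosome 11, 69095217 to 69109960, plus strand), which is also induced by glucocorticoids and by cAMP, had 4.35, 3.75 and 7.60 CPM across WT and 2.06, 8.66 and 8.67 CPM across CKO. CKO 1 was the lowest of the 6 libraries and the other two CKO libraries the highest. Its log2 fold change was 0.13 (95% interval -1.02 to 1.28, adjusted p = 0.917 by limma). Per3 (ENSMUSG00000028957; chromosome 4, 151003652 to 151044665, minus strand) had 3.62, 6.75 and 0.845 CPM across WT and 4.81, 2.89 and 2.60 CPM across CKO, so that the CKO libraries lay within the WT range (log2 fold change 0.10, adjusted p = 0.943 by limma). Cry2 (ENSMUSG00000068742; chromosome 2, 92403646 to 92434043, minus strand), the second cryptochrome, had 2.17, 2.25 and 0.845 CPM across WT and 3.44, 2.89 and 1.73 CPM across CKO. CKO 3 lay within the WT range, and the log2 fold change was 0.44 (95% interval -0.61 to 1.48, adjusted p = 0.643 by limma).

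Nr1d1 (ENSMUSG00000020889; chromosome 11, 98767932 to 98775333, minus strand) encodes the heme-binding nuclear receptor Rev-erb alpha, which represses Arntl. It had 12, 7 and 13 reads in WT 1, 2 and 3 (8.70, 5.25 and 11.0 CPM) and 45, 16 and 31 reads in CKO 1, 2 and 3 (30.9, 11.5 and 26.9 CPM). Each CKO library lay above each WT library, with CKO 2 only just above WT 3. WT averaged 8.31 ± 2.88 CPM (SD, n = 3) while CKO averaged 23.1 ± 10.2 CPM (SD, n = 3). The log2 fold change was 1.31 (SE 0.41, 95% interval 0.40 to 2.23, adjusted p = 0.0943 by limma), which missed the threshold. Without CKO 2, Nr1d1 was called, with a log2 fold change of 1.73 (adjusted p = 0.0116 by limma), where 10.8% of all genes tested were called. Over all alternatives the adjusted p ran from 0.0116 to 0.288. CKO 2 also stood apart from CKO 1 and CKO 3 in some genes of bone and late hypertrophic cartilage, but not in others. Ibsp, a bone matrix gene, had 83.0 CPM in CKO 2 against 708 and 808 CPM in CKO 1 and 3. The collagenase gene Mmp13 had 377 CPM against 2155 and 2301 CPM, and Bglap 2.89 CPM against 26.8 and 28.6 CPM. Col10a1, a hypertrophic marker, was instead highest in CKO 2, at 45.5 CPM against 24.8 and 16.5 CPM. The osteoblast markers Sp7 (4.13, 4.33 and 4.33 CPM in CKO 1, 2 and 3) and Col1a1 (245, 240 and 269 CPM) differed little. Over the 4 osteoblast markers the sums ran from 407 to 659 CPM across WT and from 331 to 1109 CPM across CKO, and over the 3 hypertrophic markers from 270.4 to 696 and from 424 to 2317 CPM. The epidermal gene Sbsn had 83.9, 16.6 and 72.8 CPM in CKO 1, 2 and 3. The part of these cells in the Nr1d1 values was not tested.

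Nr1d2 (ENSMUSG00000021775; chromosome 14, 18204054 to 18239127, minus strand), which encodes the closely related receptor Rev-erb beta, did not separate the genotypes. It had 7.97, 6.75 and 10.1 CPM across WT and 5.50, 8.66 and 6.93 CPM across CKO. The libraries overlapped throughout, and the log2 fold change was -0.21 (95% interval -0.99 to 0.56, adjusted p = 0.774 by limma). Reads of Nr1d2 are uncertain to the extent that 1 other annotated gene matches it, with 90% identity or more over 300 bp or more.

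Dbp (ENSMUSG00000059824; chromosome 7, 45705088 to 45710203, plus strand) encodes a PAR bZIP factor that activates genes with D-boxes, and its own transcript is among the most strongly cycling in many tissues. It had 36, 19 and 22 reads in WT 1, 2 and 3 (26.1, 14.3 and 18.6 CPM) and 16, 4 and 9 reads in CKO 1, 2 and 3 (11.0, 2.89 and 7.80 CPM). Each CKO library lay below each WT library, and CKO 2 was the lowest. WT averaged 19.6 ± 5.99 CPM (SD, n = 3) while CKO averaged 7.23 ± 4.09 CPM (SD, n = 3). The log2 fold change was -1.43 (SE 0.44, 95% interval -2.41 to -0.46, adjusted p = 0.0879 by limma), and the exact two-sided permutation p was 0.1. Over all alternatives the adjusted p ran from 0.0717 to 0.284, and with single libraries left out the log2 fold change stayed between -1.78 and -0.97. Tef, which encodes another PAR bZIP factor of the same family, had 17.4, 15.0 and 12.7 CPM across WT and 10.3, 8.66 and 10.4 CPM across CKO. These libraries did not overlap either, with a smaller log2 fold change of -0.56 (95% interval -1.21 to 0.08, adjusted p = 0.300 by limma). Hlf, the third PAR bZIP gene, was not among the genes of the table.

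Nr1d1 and Dbp, both targets of the Clock and Arntl dimer, had log2 fold changes of opposite sign, and neither passed the adjusted threshold. The difference of Nr1d1 minus Dbp in log2(CPM + 1) was -1.48, -1.29 and -0.71 in WT 1, 2 and 3. It was 1.41, 1.69 and 1.66 in CKO 1, 2 and 3, a separation that follows from the non-overlap of each gene and adds nothing to it. Within CKO both genes ranked the libraries alike, with CKO 1 highest and CKO 2 lowest. In WT, WT 2 was the lowest library for both. The difference of Dbp minus Arntl was 1.48, 0.61 and 0.35 in WT and 0.74, -1.61 and -0.48 in CKO, and here the genotypes overlapped.

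Both Nr1d1 and Dbp share exon sequence with a gene on the other strand. Nr1d1 shares 263 of its 3077 annotated exon bases with Thra, which encodes thyroid hormone receptor alpha, and Dbp shares 539 of its 2993 with Sphk2, a sphingosine kinase gene. The library kit keeps the strand, but the strand setting of the read counting is not given in the sources used here, and reads on the shared bases are uncertain. These neighbours were found through the annotation. Thra had 13.0, 18.8 and 18.6 CPM across WT and 8.25, 5.77 and 2.60 CPM across CKO, without overlap, and the log2 fold change came to -1.53 (SE 0.40, adjusted p = 0.0527 by limma). It was called without CKO 2 (adjusted p = 0.0415) and with CPM scaled by TMM factors (adjusted p = 0.0494). Sphk2 had 13.8, 23.3 and 18.6 CPM across WT and 28.9, 27.4 and 22.5 CPM across CKO, with overlap, and its log2 fold change came to 0.50 (adjusted p = 0.318 by limma). The log2 fold change of each neighbour thus had the sign opposite to that of its clock gene. The sum of Nr1d1 and Thra was 21.7, 24.0 and 29.6 CPM across WT and 39.2, 17.3 and 29.5 CPM across CKO, with overlap. The sum of Dbp and Sphk2 was 39.9, 37.5 and 37.2 CPM across WT and 39.9, 30.3 and 30.3 CPM across CKO, also with overlap. The part of the shared bases in these values was not tested.

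**Figure D3:**
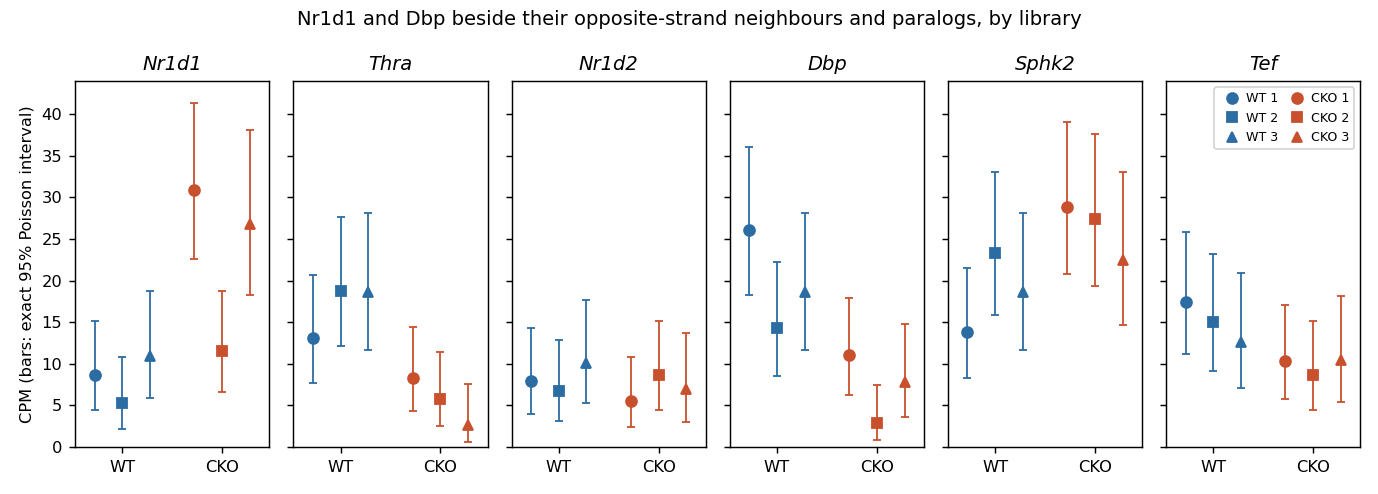
CPM of Nr1d1, its opposite-strand neighbour Thra and its paralog Nr1d2, and of Dbp, its opposite-strand neighbour Sphk2 and its paralog Tef, in each library, with exact 95% Poisson intervals of the reads that cover counting error only. Nr1d1 is higher and Thra lower in each CKO library, and Dbp and Tef are lower, while Nr1d2 and Sphk2 overlap.

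Libraries of a genotype were also compared with each other. Of 60 pairs of libraries of a genotype, taken over the 10 genes, 59 had overlapping Poisson intervals, which at these low counts are wide, so that overlap does not show a spread to be counting error. The exception was Nr1d1 in CKO 1 (22.6 to 41.4 CPM) against CKO 2 (6.60 to 18.8 CPM). For Dbp the interval of CKO 1 (6.29 to 17.9 CPM) still reached that of CKO 2 (0.787 to 7.39 CPM). The SD within genotypes on the log2 scale was largest for Per3, at 0.79, which exceeded that of 86.4% of all genes tested. This rank is not matched for level, and the mean of Per3 exceeded that of only 21.7% of these genes. It was 0.75 for Per1, 0.74 for Cry1, 0.66 for Dbp and 0.62 for Nr1d1, against a median of 0.41 over all genes tested. Nr1d2 was the steadiest of the 10, at 0.27, and Per2, Arntl, Clock and Cry2 lay between 0.39 and 0.42.

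The wider clock was read from 27 further genes, of which 26 were in the table and 23 were tested. With limma, 0 passed the adjusted threshold, beside 5.78% of all genes tested, and 0 had an unadjusted p under 0.05, beside 21.3%. At their adjusted thresholds edgeR and DESeq2 also called 0, where they called 630 and 638 of all 12155 genes. The median log2 fold change of the 23 tested was 0.037, with 12 positive and 11 negative values. Csnk1d, which encodes a kinase that phosphorylates Per proteins, was at 76.1, 72.0 and 68.4 CPM across WT and 78.4, 88.8 and 87.5 CPM across CKO. These did not overlap, and the log2 fold change was 0.23 (95% interval -0.15 to 0.61, adjusted p = 0.480 by limma). Csnk1a1, another casein kinase gene, had a log2 fold change of -0.26 (95% interval -0.69 to 0.18), and the ubiquitin ligase gene Btrc, whose product marks Per proteins for degradation, one of 0.04 (95% interval -0.58 to 0.66). The E-box repressor genes Bhlhe41 and Ciart, themselves driven by the clock, were at 9.76 to 21.1 and 8.45 to 14.5 CPM in WT and at 13.0 to 19.3 and 6.93 to 16.6 CPM in CKO. Both overlapped, with log2 fold changes of 0.14 and -0.01. Rora and Rorb, which encode activators that oppose the Nr1d receptors, were near or under the floor of 3 reads in most libraries. Rora had 3, 3 and 8 reads in WT and 3, 3 and 2 in CKO, and Rorb had 1 read in all. Among outputs of the clock, Nampt, which encodes the rate-limiting enzyme of NAD salvage, had a log2 fold change of 0.17 and Usp2, a deubiquitinase gene, one of 0.36, and neither separated the genotypes.

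**Figure D4:**
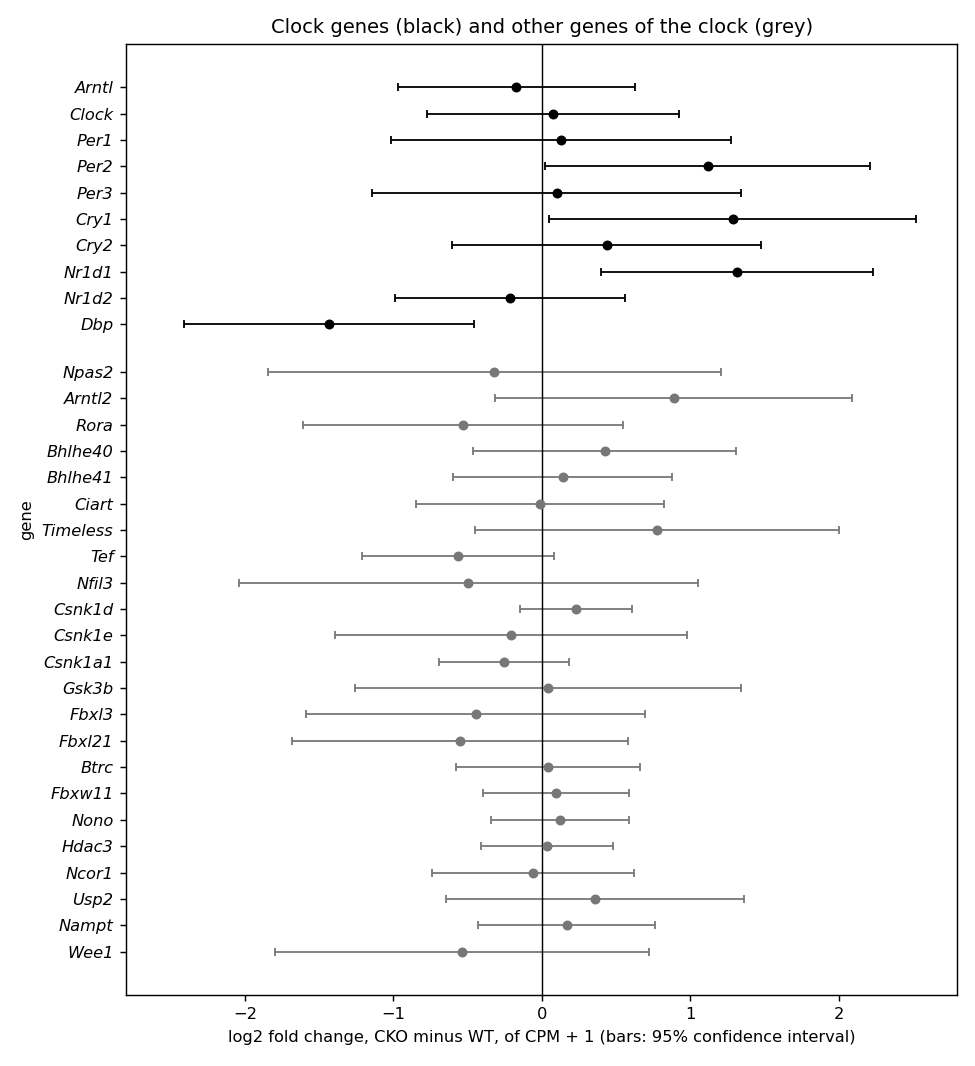
Log2 fold change (CKO minus WT, of CPM + 1) with its 95% confidence interval for the 10 clock genes in black and the 23 tested genes of the wider clock in grey. The intervals of Per2, Cry1, Nr1d1 and Dbp leave out 0 before adjustment, and those of the grey genes include 0.

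Because Per1 and other clock genes also respond to glucocorticoids and to acute stimuli, lists of such genes were read in the same fit. Of 8 glucocorticoid-induced genes, 7 were tested and 3 rose past the adjusted threshold, beside 5.78% of all genes tested in either direction, namely Sgk1 (log2 fold change 1.43, adjusted p = 0.00429 by limma), Errfi1 (1.56, adjusted p = 0.0238) and Cdkn1a (2.13, adjusted p = 0.00130). These encode a kinase, an inhibitor of the EGF receptor and the cell cycle inhibitor p21, and each also answers to other signals. Tsc22d3 and Fkbp5, both widely used as markers of the glucocorticoid response, had log2 fold changes of -0.12 (95% interval -0.58 to 0.34) and -0.34 (95% interval -1.52 to 0.84). Dusp1, a phosphatase gene that acute stimuli also induce, had 4, 2 and 25 reads across WT and 22, 69 and 20 reads across CKO, with overlap, and was not called (log2 fold change 2.04, 95% interval 0.41 to 3.67, adjusted p = 0.141 by limma). Klf9, the other tested gene, had a log2 fold change of 0.01 (95% interval -1.05 to 1.08). Of 7 immediate early genes, 6 were tested and 2 rose, against the same 5.78%, Fos (log2 fold change 2.17, adjusted p = 0.00795 by limma) and Junb (1.33, adjusted p = 0.0121). Fosb, Ier2 and Atf3 overlapped between the genotypes and were not called, with log2 fold changes of 0.03, 0.30 and 0.36. Egr1 had 9.42, 5.25 and 0 CPM across WT and 22.0, 22.4 and 15.6 CPM across CKO, without overlap, and was not called by limma (log2 fold change 2.37, adjusted p = 0.0857) but was by DESeq2 (adjusted p = 0.0427). Leaving out 1 library ended the call of Errfi1 without WT 1 (adjusted p = 0.104), WT 2 (0.113) or CKO 3 (0.0842), and that of Junb without WT 2 (0.0599), CKO 1 (0.0609) or CKO 3 (0.0640). Per1, with a log2 fold change of 0.13, was not called beside them. The part of such stimuli in the clock gene values was not tested.

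Genes with the pattern most like a clock gene were sought for Dbp and Arntl, as the highest Pearson correlation of log2(CPM + 1) over the 6 libraries among 6826 genes whose mean reached 10 CPM. For Dbp these were Dync2h1 (r = 0.996), Gpm6b (r = 0.994) and Efcab1 (r = 0.988). Each of these genes was lower in every CKO library than in any WT library, and lowest in CKO 2, with Dync2h1 at 20.3, 12.0 and 16.1 CPM across WT and 10.3, 3.61 and 8.67 CPM across CKO. For Arntl they were Senp5 (r = 0.973), Pgs1 (r = 0.958) and Cenpk (r = 0.958), each highest in WT 3 and lowest in CKO 1. These values describe 6 libraries that share their genotypes and depths, and the highest of 6826 correlations over 6 points is high by selection.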

How the data were processed

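The authors deposited CPM for 15803 genes in 6 libraries made with a stranded mRNA kit. The submitters' processing notes name cutadapt 2.5, HISAT2 and featureCounts 1.6.3, while genome build, annotation and strand setting are not given in the sources used here. All values (100%) were whole multiples of 1 read within 0.001 reads, so reads were recovered (1153871 to 1454094 per library). Intervals and floors (3 reads) cover counting error only, as no molecular identifiers are described.

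Log2(CPM + 1) of the 12155 genes whose mean reached 1 CPM was fitted on genotype with limma 3.58.1 (R 4.3.3, mean-variance trend), with Benjamini-Hochberg adjustment over all these genes. The scripts were tested on simulated data with 4-fold changes. There limma recovered 69.1% of the changed genes, and 96.2% of those that reached 10 CPM. The simulated spread was set alike for all genes and not taken from these libraries, so these shares do not give the power for the clock genes. Alternatives were a pseudocount of 0.1, no filter, a replicate block, each library left out, TMM scaling, edgeR 4.0.16, DESeq2 1.42.0 and the criterion of the study. For single genes outside the 10 they were chosen after seeing the data. Coordinates, exon lengths and overlaps came from GENCODE M21 (GRCm38), near-identical transcripts from blastn 2.17.0 and promoters from RefSeq (GRCm38.p6). Members and lists were chosen with earlier results of these data known. The genes named are the 10 clock genes, the fixed lists and markers, Hnrnpk, the 3 genes most like Dbp or Arntl and, added after their values were seen, Thra and Sphk2.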

Additional observations from a re-analysis of the deposited data

How the results depend on the processing

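The count of 0 clock genes past limma's adjusted threshold stayed at 0 with a pseudocount of 0.1, without a filter and with TMM scaling. It was also 0 with edgeR and with DESeq2, which gave no adjusted p for 4 of the 10. Over all genes, 580 of 12155 passed with a pseudocount of 0.1, 698 of 15803 without a filter and 678 of 12155 with TMM scaling. With edgeR 630 and with DESeq2 638 of 12155 passed. At such shares, 0 of 10 does not set the clock genes apart. With single libraries left out the count of clock genes was 0 to 1, the 1 being Nr1d1 without CKO 2. By the criterion of the study it was 4. Over all genes, 703 passed in the fit reported, 212 to 1298 with single libraries left out (1298 without CKO 2, 218 without WT 1, 212 without WT 2, 258 without CKO 1, 231 without CKO 3) and 1264 by the criterion of the study. With the replicate number as a block, 385 genes and 0 clock genes passed. No pairing by number was seen. Deviations of libraries with the same number correlated at -0.131 to 0.0378, and 0 of 3 WT libraries correlated best with their own number. Counting noise at this depth lowers such correlations, so that they cannot show the libraries to be unpaired. With single libraries left out the log2 fold change changed sign for Per1 (-0.15 to 0.68), Per3 (-0.47 to 0.57), Arntl (-0.31 to 0.076) and Clock (-0.13 to 0.33). With edgeR it was -0.16 for Per3 and -0.0028 for Clock. The causes were not tested. The direction of Nr1d1, Cry1, Per2, Cry2, Nr1d2 and Dbp held under each alternative that gave an adjusted p. For Cry1, Per2 and Cry2 this leaves out DESeq2, whose direction was not checked. Depth limits Per2, Cry1, Cry2 and Per3 most, with 11 to 29 reads each.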
